A study of Mus musculus with 29 samples.

Results

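The liver genes followed here belong to the acute phase response, and were read in every mouse of the series: the serum amyloid A genes Saa1 and Saa2, the orosomucoids Orm1 and Orm2, haptoglobin (Hp), hemopexin (Hpx), lipocalin 2 (Lcn2), serum amyloid P component (Apcs) and Steap4. They were taken by gene symbol and make up 9 of the 12992 genes in the count table. RNA was sequenced from 29 livers of male C57BL/6 mice, which were 13 to 14 weeks old, had been fed Chow or a High Fat (HF) diet from 4 to 5 weeks of age, and were fasted overnight and refed for 4 h. The HF diet had 60% of its calories from lard. The study set out to compare loss of MAF1, a repressor of RNA polymerase III, in all cells with its loss in hepatocytes alone. In the first cohort, 5 Chow-fed Maf1-/- mice, which lack Maf1 in every cell, stood against 7 Chow-fed Ctrl mice. In the second, 4 Chow-fed Maf1hep-/- mice stood against 4 Chow-fed Ctrl mice, and in the third 4 HF-fed Maf1hep-/- mice against 5 HF-fed Ctrl mice. All mice of both hepatocyte cohorts had 2 floxed copies of Maf1, and the Maf1hep-/- mice also carried 1 copy of an Alb-Cre transgene, in which the Albumin promoter drives Cre recombinase in hepatocytes, so that other liver cells keep Maf1. The Ctrl mice of these cohorts lack Cre and are called floxed Ctrl here; those of the first cohort are called whole-body Ctrl.

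The acute phase response is the change in the set of plasma proteins that hepatocytes make during inflammation or injury. Interleukin-6, acting through STAT3, and interleukin-1, acting through NF-kB, together with factors of the C/EBP family and glucocorticoids, raise the transcription of many of its genes. Serum amyloid A can rise by orders of magnitude within hours, whereas haptoglobin, hemopexin and the orosomucoids are abundant in healthy liver and move less. In the mouse, serum amyloid P component takes the place that C-reactive protein has in humans as a strongly induced pentraxin.

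The serum amyloid A pair is shown by sequence because these genes are near copies, both in the promoter and in the message. On mm10, Saa1 (chr7:46740497-46742980, minus strand) and Saa2 (chr7:46751790-46754313, plus strand) lie head to head, with 8809 bases between them by GENCODE annotation. Promoters of 7 of the 9 genes were matched in RefSeq (build GRCm38.p6, the same assembly as mm10); Orm1 and Hp were not. RefSeq starts need not match the GENCODE gene boundary, as for Saa2. The 200 bases before the start of Saa1, Saa2, Orm2 and Steap4 are given 5′ to 3′, with matches to the letters TTGCNNAA, a pattern of C/EBP type, TTCNNNGAA, a pattern of STAT type, and TATAAA in capitals.
Saa1 (chr7:46742981-46743180, minus strand): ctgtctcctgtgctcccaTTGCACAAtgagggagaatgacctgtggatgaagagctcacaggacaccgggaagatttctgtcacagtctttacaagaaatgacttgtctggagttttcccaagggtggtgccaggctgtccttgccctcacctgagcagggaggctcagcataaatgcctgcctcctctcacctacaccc
Saa2 (chr7:46751633-46751832, plus strand): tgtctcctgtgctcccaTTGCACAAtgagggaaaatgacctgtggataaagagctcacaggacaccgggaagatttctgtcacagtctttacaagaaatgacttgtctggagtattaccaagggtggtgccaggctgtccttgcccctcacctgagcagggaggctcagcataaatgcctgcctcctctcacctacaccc
Orm2 (chr4:63362249-63362448, plus strand): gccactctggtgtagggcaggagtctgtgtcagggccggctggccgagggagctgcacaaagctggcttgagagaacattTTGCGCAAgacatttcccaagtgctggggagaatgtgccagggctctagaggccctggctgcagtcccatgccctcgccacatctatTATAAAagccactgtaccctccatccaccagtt
Steap4 (chr5:7960272-7960471, plus strand): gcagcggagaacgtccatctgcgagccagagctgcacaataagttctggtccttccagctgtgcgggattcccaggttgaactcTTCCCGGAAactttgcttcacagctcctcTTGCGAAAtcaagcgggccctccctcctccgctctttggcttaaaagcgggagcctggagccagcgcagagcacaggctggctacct
Both serum amyloid A promoters aligned over these 200 bases with 97% identity, and each held TTGCACAA, which starts 182 bases before the start in Saa1 and 183 in Saa2. Orm2 held TTGCGCAA from position -120 and TATAAA from position -33. Steap4 held TTCCCGGAA from position -116 and TTGCGAAA from position -87. Searched on both strands over the full 250 bases before the start, TTGCNNAA was found in 6 of the 7 promoters, Apcs being the exception, and in 9.56% of 32851 RefSeq promoters. TTCNNNGAA was found in Apcs and Steap4 and in 7.02% of all promoters, and TATAAA, which overlapped neither of the others, in Orm2, in Steap4 upstream of the stretch printed, and in 12.4% of all promoters. These are matches of letters chosen with the sequences at hand; binding was not measured.

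The messages of each paralog pair are similar enough to affect counting. The transcripts of Saa1 and Saa2 were 93.9% identical, and 13.2% of the 50-base windows of Saa1 occurred unchanged in Saa2, but none of its 100-base windows did. Those of Orm1 and Orm2, on chromosome 4 with 14285 bases between them, were 91.0% identical, with 20.4% of 50-base windows and 6.95% of 100-base windows shared. In the Chow-fed mice 2 to 4 of these 4 genes had counts that were not whole numbers, as arise when reads are divided between genes, whereas all counts of the HF-fed mice were whole. Differences between the members of a pair, and levels of either across diets, are therefore uncertain.

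Library totals were 43564164 to 75682301 counts on Chow and 25544816 to 32319706 counts on HF. Levels are given as counts-per-million (CPM), scaled by TMM over all 29 mice. Maf1 checked the genotype labels: it stood at 0.382 ± 0.417 CPM (SD, n = 5) in Maf1-/- against 8.72 ± 1.98 (n = 7) in whole-body Ctrl livers, at 3.44 ± 0.610 against 17.3 ± 1.79 (n = 4 each) in Chow-fed Maf1hep-/- and floxed Ctrl livers, and at 1.59 ± 0.186 (n = 4) against 16.6 ± 2.63 (n = 5) on HF. The exact permutation p was the smallest possible in each cohort (0.00126, 0.0286 and 0.00794). Hepatocyte markers, 10 of 10 measured, summed to 87347 to 138758 CPM over the 29 livers. Whole-body Ctrl mouse 2 and floxed Ctrl Chow mouse 1 stood apart from their groups, the first across all genes and the second in the genes described here, and results that rest on them are given with and without them.

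By group median level per kilobase of transcript, Hpx and Hp led in each of the 6 groups, Orm1 came next and Lcn2 was lowest. In whole-body Ctrl livers the medians were 2159 CPM per kilobase for Hpx, which carries free heme, and 1763 for Hp, which binds free hemoglobin. Orm1, a carrier of drugs and other small molecules in plasma, stood at 670.0 CPM per kilobase. Apcs (69.3), Steap4 (60.8), Saa1 (24.2), Orm2 (18.2), Saa2 (7.32) and Lcn2 (3.74) followed. Over the 7 mice the ranges overlapped between all neighbours in this order except Orm1 and Apcs. Orm2 reached only 1.60 to 7.54% of Orm1 in any mouse, and Saa2 20.0 to 86.9% of Saa1.

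**Figure D1:**
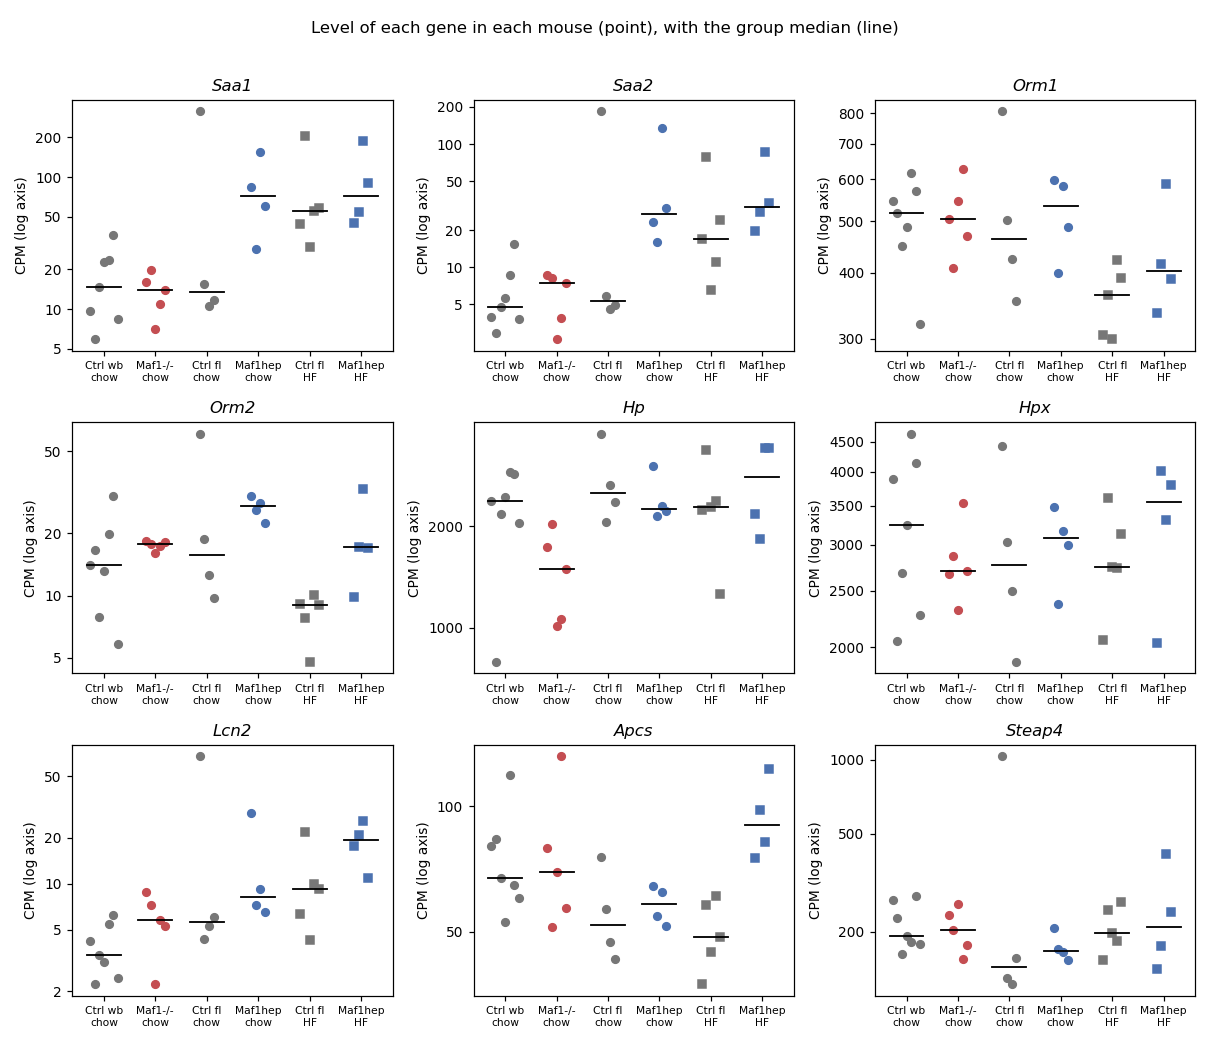
Level of each of the 9 genes in CPM (log axis) in each of the 29 mice, by group (wb: whole-body cohort; fl: floxed; circles: Chow; squares: HF; grey: Ctrl), with a line at the group median. A single floxed Ctrl Chow mouse lies far above its 3 group mates for Saa1 (315 against 10.5 to 15.45 CPM), Saa2, Orm2, Lcn2 and Steap4, and the HF groups do not overlap for Apcs.

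After loss of MAF1 in all cells the 9 genes overlapped between Maf1-/- and Ctrl livers, and the largest differences were lower values of Hp and higher values of Lcn2, neither of which passed the test. Of all genes, 0.328% were higher and 0.211% lower without overlap. In bulk liver, here and in every comparison that follows, fewer cells of a type and less RNA per cell cannot be told apart. Hp ran from 1016 through a median of 1492.5 to 2024 CPM in the 5 Maf1-/- livers: 1732, 2024, 1016, 1064 and 1492.5 CPM in mice 1 to 5. In the 7 Ctrl livers it ran from 794 through a median of 2372 to 2901 CPM. Ctrl mouse 2 was lower than every Maf1-/- mouse, and the other 6 Ctrl mice, at 2043 CPM or more, were all higher than every Maf1-/- mouse. The log2 fold change of Hp was -0.57 (SE 0.26, edgeR adjusted p = 0.189; exact permutation p = 0.0631). Without Ctrl mouse 2 it was -0.71 (SE 0.18) and passed the test (edgeR adjusted p = 0.0131), but 35.4% of all genes then did so, against 0.0156% with all mice. The 2 groups then did not overlap for Hp, which held, in the lower direction, for 9.48% of all genes.

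Lcn2, which binds iron-carrying siderophores of bacteria, stood at 8.87, 7.24, 2.23, 5.82 and 5.29 CPM in the Maf1-/- livers and between 2.21 and 6.27 CPM, with a median of 3.425, in Ctrl livers. Maf1-/- mice 1 and 2 were above all Ctrl mice and mouse 3 was at the bottom of the Ctrl range. The log2 fold change was 0.64 (SE 0.31, edgeR adjusted p = 0.201). With edgeR none of the 9 genes passed an adjusted p of 0.05 and Hp alone passed an unadjusted p of 0.05, as did 26.3% of the 12796 genes tested; DESeq2 also called 0 of the 9. The median log2 fold change of the 9 genes was -0.02, beside 0.00302 for all genes, with 4 higher and 5 lower.

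In the Chow-fed hepatocyte cohort the outcome depended on 1 Ctrl mouse. Saa1 stood at 84.25, 28.3, 155 and 60.5 CPM in the 4 Maf1hep-/- livers, and at 315, 15.45, 10.5 and 11.7 CPM in the 4 floxed Ctrl livers. Saa2 stood at 23.5, 15.9, 135 and 30.2 CPM in Maf1hep-/- livers and at 184, 5.79, 4.59 and 4.91 CPM in Ctrl livers. All 4 Maf1hep-/- mice were above Ctrl mice 2 to 4 and below Ctrl mouse 1 for both genes. With all 8 mice the log2 fold changes were -0.11 (SE 1.07) for Saa1 and 0.03 (SE 1.23) for Saa2. The group medians of Saa1, 72.4 CPM in Maf1hep-/- and 13.6 CPM in Ctrl livers, lay 5.33-fold apart, whereas the means differed by less than the spread between mice (82.0 ± 53.8 and 88.1 ± 151 CPM, SD, n = 4 each; exact permutation p = 1.0, the smallest possible being 0.0286).

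Orm2, Lcn2 and Steap4 had the same shape. Orm2 stood at 30.3, 26.0, 28.2 and 22.5 CPM in Maf1hep-/- livers and at 60.75, 18.8, 12.6 and 9.75 CPM in Ctrl livers. Lcn2 stood at 28.7, 7.24, 9.23 and 6.50 CPM against 67.65, 4.375, 5.30 and 6.04 CPM. For both, every Maf1hep-/- mouse exceeded Ctrl mice 2 to 4. Steap4, a metalloreductase of iron and copper that is induced by inflammatory cytokines, stood at 206, 170, 166 and 154 CPM against 1033, 130, 122 and 157 CPM, and here Ctrl mouse 4 exceeded the lowest Maf1hep-/- mouse. The log2 fold changes with all mice were 0.07 (SE 0.50) for Orm2, -0.69 (SE 0.91) for Lcn2 and -1.05 (SE 0.65) for Steap4.

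With all mice, none of the 9 genes was called by edgeR (adjusted p 0.997 to 0.999), and edgeR called 0.0159% of 12570 genes. DESeq2 called none of 6 of them and gave no adjusted p for Saa2, Lcn2 and Steap4. None of the 9 passed an unadjusted p of 0.05, as 2.39% of all genes did. The groups overlapped for all 9, whereas 0.692% of all genes were higher and 0.756% lower without overlap. Without Ctrl mouse 1 edgeR still called 0 of the 9 (adjusted p 0.859 or more), but Saa1 (log2 fold change 2.70, SE 0.50), Saa2 (3.32, SE 0.74), Orm2 (0.96, SE 0.21), Lcn2 (1.30, SE 0.50) and Steap4 (0.35, SE 0.12) passed an unadjusted p of 0.05, as did 4.71% of all genes. Of these, the 4 other than Steap4 did not overlap between the groups, which held, in the higher direction, for 2.72% of all genes. Hp, Hpx, Orm1 and Apcs differed by 0.28 or less on the log2 scale (unadjusted p 0.063 or more). Attention fell on this mouse because of its values, so these figures describe the other 7 mice.

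**Figure D2:**
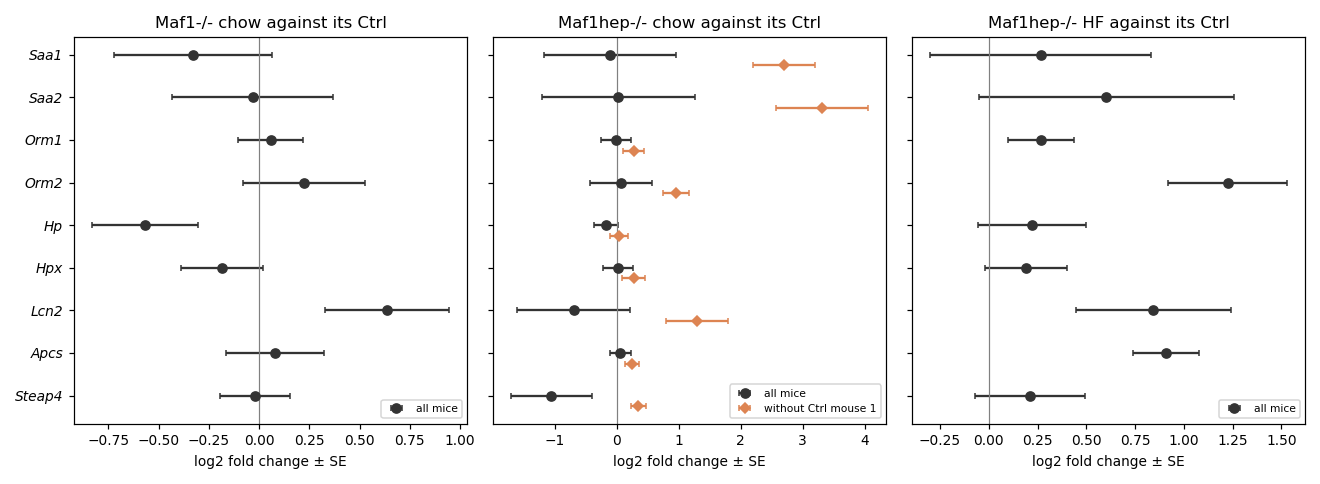
Log2 fold change of each gene (horizontal axis, bars: SE, scales differ between panels) for each knockout against its own Ctrl mice, with the Chow-fed hepatocyte cohort shown also without floxed Ctrl Chow mouse 1 (diamonds). Saa1 moves from -0.11 to 2.70 when that mouse is left out, and on HF all 9 genes lie above 0.

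Floxed Ctrl Chow mouse 1 was high in genes well beyond these 9. Against the median of its 3 group mates, Saa2 was 36.8-fold, Saa1 26.7-fold, Lcn2 12.5-fold, Steap4 7.96-fold and Orm2 4.79-fold higher, while Orm1, Hpx, Apcs and Hp were 1.59 to 1.90-fold higher. Among 7401 genes at 10 CPM or more in this mouse, Saa2 ranked 2nd, Saa1 5th, Lcn2 8th and Steap4 12th by this ratio. The metallothionein Mt2 ranked 1st, the neutrophil attractant Cxcl1 4th, Tifa, an adaptor of NF-kB signalling, 10th, and Tnfaip3, an NF-kB target that restrains the pathway, 15th; these were picked from the ranking. Of all genes, 2.28% were over 2-fold higher and 3.11% under 0.5-fold, against 0.482 to 0.675% and 0.514 to 0.859% in its mates.

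Of 25 other positive acute phase genes measured, of 28 listed, 23 were higher in this mouse than in the median of its mates and 11 were over 2-fold higher. They included the fibrinogen chains Fga (7631 against 2767 to 3109 CPM), Fgb and Fgg, Saa3, Saa4, Lbp and Il1rn. Of 19 genes of interleukin-1, TNF and NF-kB signalling, 18 were higher and 8 over 2-fold, among them the receptors Il1r1 (81.9 against 15.2 to 22.6 CPM) and Tlr2. Of 16 genes of interleukin-6 and STAT3 signalling, 13 were higher and 4 over 2-fold, namely Socs3, Osmr, Cebpd and Bcl3. The genes named from these lists were chosen after their values were seen.

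Negative acute phase genes, whose messages usually decline in inflammation, did not stand lower as a list: 6 of 11 were higher, 0 were under 0.5-fold, and the median ratio was 1.03. Of 13 iron handling genes 3 were higher, and the zinc and iron importer Slc39a14 was the 1 over 2-fold (385 against 129 to 151 CPM). The first principal component of all genes was led by whole-body Ctrl mouse 2 (score 0.700). Scores of the floxed Ctrl Chow mice ran only from -0.0524 to 0.0354, so this component could not set mouse 1 apart. Depth did not set the mouse apart (54007272 counts, against 43564164 to 63217938 in its mates). Kupffer cell and macrophage markers, 12 of 12 measured and none at 0, summed to 355 CPM in it and to 257 to 306 CPM in its mates. Neutrophil markers, of which 2 of 13 were measured, S100a9 and Csf3r, summed to 3.45 against 1.73 to 2.14 CPM. The part of these cells in the result was not tested.

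**Figure D3:**
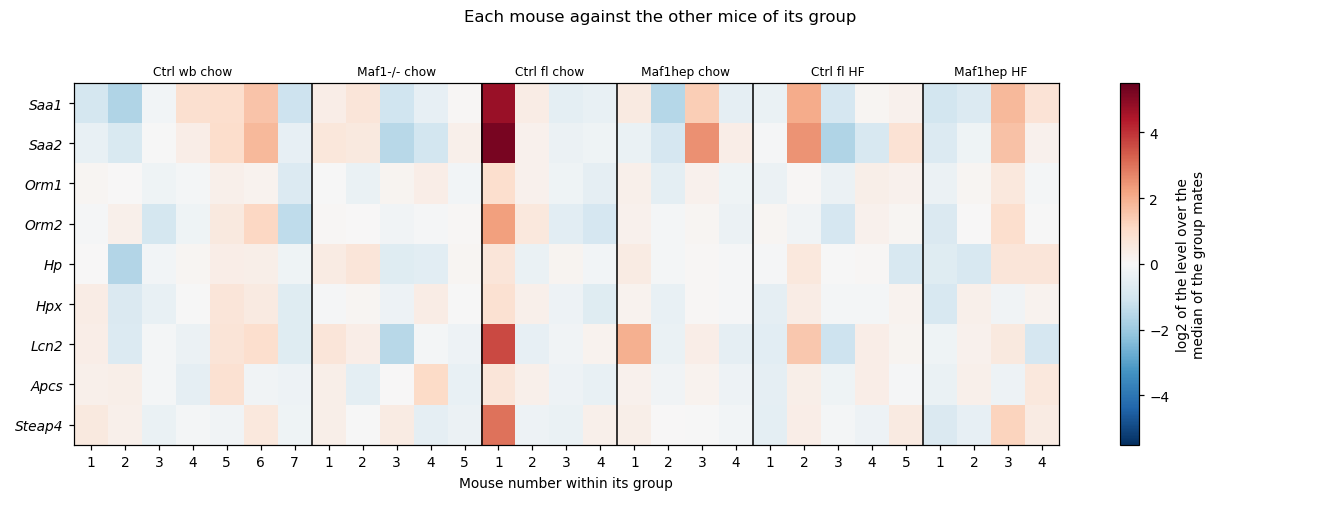
Log2 of the level of each gene (rows) in each mouse (columns, numbered within groups) over the median of the other mice of its group. The darkest column is floxed Ctrl Chow mouse 1, where 5 of the 9 genes are over 2-fold higher; whole-body Ctrl mouse 6, floxed Ctrl HF mouse 2 and Maf1hep-/- HF mouse 3 follow with 3 genes each.

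**Figure D4:**
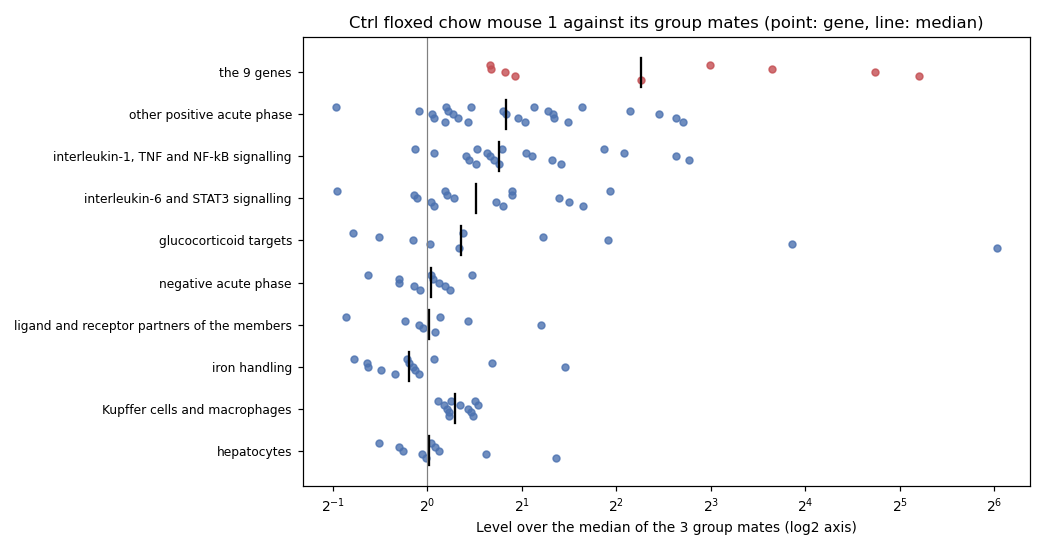
Ratio of floxed Ctrl Chow mouse 1 to the median of its 3 group mates (log2 axis) for the 9 genes and for the genes of 9 lists (point: gene; line: list median). The medians are 4.79 for the 9 genes, 1.78 for other positive acute phase genes and 1.03 for negative ones.

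Other mice showed smaller departures of the same genes. Whole-body Ctrl mouse 6 had Saa1, Saa2 and Orm2 over 2-fold above its mates, the largest ratio being 3.47, and floxed Ctrl HF mouse 2 had Saa1, Saa2 and Lcn2 over 2-fold, up to 5.62-fold. Maf1hep-/- Chow mouse 3 had both serum amyloid A genes over 2-fold, up to 5.72-fold, and Maf1hep-/- HF mouse 3 had Saa1, Saa2 and Steap4 over 2-fold, up to 3.49-fold. Within groups, the coefficient of variation of Saa1 was 35.8 to 171% and that of Saa2 44.5 to 180%, beside a median over 12450 genes of 10.8 to 18.0%. Hpx, at 15.5 to 36.7%, and Hp, at 16.7 to 32.4%, varied less.

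On HF, all 9 genes were higher on average in Maf1hep-/- than in floxed Ctrl livers, and Apcs and Orm2 had the lowest p. Without Maf1hep-/- mouse 3, 3 of the 9 were lower instead: Saa1 (log2 fold change -0.33), Saa2 (-0.03) and Steap4 (-0.18). Apcs, a pentraxin that binds amyloid and cell debris, stood at 75.2, 98.1, 81.95 and 122.5 CPM in the 4 Maf1hep-/- livers and at 37.4, 57.8, 44.7, 61.0 and 48.6 CPM in the 5 Ctrl livers. The groups did not overlap, which held, in the higher direction, for 0.889% of 12378 genes. The log2 fold change was 0.91 (SE 0.17), with group means of 94.4 ± 21.0 (SD, n = 4) and 49.9 ± 9.62 CPM (n = 5) and an exact permutation p of 0.00794, the smallest possible.

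Adjusted over all genes, Apcs did not pass in edgeR (adjusted p = 0.201), and edgeR called 0.0162% of genes, 2 in all. With the replicate number as a block it passed (log2 fold change 0.89, edgeR adjusted p = 0.00793; 45 genes called), as it did with DESeq2 (adjusted p = 0.000415; 56 genes called). Same-numbered mice of this cohort had correlations of 0.102 to 0.367, over the criterion of 0.1 set here, but differently numbered mice were not compared. The labels do not say what the numbers share, and the study's methods describe its tested datasets as unpaired. No mouse left out turned the direction (0.76 to 1.0).

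Orm2 stood at 9.89, 17.2, 32.75 and 17.0 CPM in HF-fed Maf1hep-/- livers and at 9.09, 7.835, 4.78, 10.1 and 9.02 CPM in HF-fed Ctrl livers. Only Ctrl mouse 4 reached into the Maf1hep-/- range, above mouse 1. The log2 fold change was 1.22 (SE 0.31, edgeR adjusted p = 0.472; exact permutation p = 0.0159), and DESeq2 called it (adjusted p = 0.0166). Orm1 overlapped between the groups (335.5 to 588 against 299 to 423 CPM), and with Orm1 and Orm2 summed the log2 fold change was 0.30 (SE 0.17, edgeR adjusted p = 0.863). Lcn2 stood at 17.7, 20.7, 25.65 and 10.8 CPM against 6.39, 21.85, 4.32, 10.02 and 9.25 CPM, with Ctrl mouse 2 inside the Maf1hep-/- range, and its log2 fold change was 0.84 (SE 0.40, edgeR adjusted p = 0.824).

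Over the 9 genes the log2 fold changes on HF ran from 0.19 to 1.22 with a median of 0.27, beside -0.00349 for all genes. Apcs and Orm2 passed an unadjusted p of 0.05, as did 6.04% of all genes. The genes move together between mice, so that 9 higher genes are not 9 separate observations. Of 25 other positive acute phase genes, 21 were higher and 4 lower (median log2 fold change 0.31), 0 were called by edgeR and 10 passed an unadjusted p of 0.05. Of 11 negative acute phase genes, 8 were higher and 3 lower (median log2 fold change 0.14), 0 were called by edgeR and 4 passed an unadjusted p of 0.05. Genes of interleukin-6 and STAT3 signalling (6 of 16 higher) and of interleukin-1, TNF and NF-kB signalling (5 of 19 higher) did not share that direction, and 0 of either were called. Erythroid markers, 5 of 5 measured, were all higher in Maf1hep-/- livers, with summed levels of 58.1 to 151 against 54.9 to 95.2 CPM. Hepatocyte markers, 10 of 10 measured, summed to 111443 to 120348 CPM in Maf1hep-/- and to 94383 to 109588 CPM in Ctrl livers, without overlap. Most of that sum was Alb (median 63588 CPM over all mice) and Apob (20070 CPM). Over the list 6 were higher and 4 lower, with a median log2 fold change of 0.04, and 0 were called by edgeR. Kupffer cell and macrophage markers summed to 360.2 to 720 against 401 to 589 CPM. The part of these cell types in the HF result was not tested.

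Whether the hepatocyte knockout acts differently on the 2 diets was tested as an interaction over all 17 mice of these cohorts. None of 12970 genes passed an adjusted p of 0.05 with edgeR, and DESeq2 called 11, none of them among the 9, of which Saa2 had no adjusted p; 4.62% passed an unadjusted p of 0.05, and Apcs alone of the 9 genes did so. Its interaction was 0.85 on the log2 scale (SE 0.26, unadjusted p = 0.00388, edgeR adjusted p = 0.998): Apcs levels on Chow were 51.7 to 64.5 CPM in Maf1hep-/- and 43.05 to 75.6 CPM in Ctrl livers, which overlapped. For Orm2 the interaction was 1.16 (SE 0.62, edgeR adjusted p = 0.998). The test of whole-body against hepatocyte knockout effects on Chow called 0 of 12857 genes with edgeR and 2 with DESeq2, neither among the 9 (Lcn2 and Steap4 had no adjusted p), and none of the 9 genes passed an unadjusted p of 0.05, beside 12.3% of all genes.

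Diet was compared within each genotype of the hepatocyte cohorts, with a limit that touches every value: the HF libraries were sequenced separately, for 150 cycles, at lower depth and with whole counts throughout, so diet and sequencing cannot be told apart. In floxed Ctrl livers 50.6% of 12954 genes were called, and in Maf1hep-/- livers 45.2% of 12964. Cfb, complement factor B and an acute phase gene itself, stood at 1048 to 1473 CPM in Chow-fed and at 1.55 to 2.65 CPM in HF-fed floxed Ctrl livers. Genes with fractional counts in 4 or more of the 8 Chow-fed mice of the hepatocyte cohort, to which Saa1, Saa2, Orm1 and Orm2 belong, had a median log2 difference of -0.246 (3778 genes) between HF and Chow in floxed Ctrl mice, beside 0.0581 for 8550 genes that were whole in all 8.

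Markers of several cell types also differed between diets. In floxed Ctrl livers, of 12 Kupffer cell and macrophage markers 7 were called higher and 2 lower on HF, with sums of 401 to 589 against 257 to 355 CPM on Chow. Of 5 erythroid markers 4 were called lower, with a median log2 difference of -3.91 over the list. This list holds the paralogs Hba-a1 and Hba-a2, and Hbb-bs and Hbb-bt, and how their reads were divided on each diet was not tested. Of 10 hepatocyte markers 1 was called higher and 4 lower. Ptprc, the 1 lymphocyte marker measured of 6, was called higher (log2 difference 1.12, edgeR adjusted p = 0.00052). In Maf1hep-/- livers 5 Kupffer cell and macrophage markers were called higher and 1 lower, 4 erythroid and 2 hepatocyte markers were called lower, and Ptprc was called higher (0.88, edgeR adjusted p = 0.00337). Of the 2 neutrophil markers measured of 13 listed, 1 was called higher on HF in floxed Ctrl and 2 in Maf1hep-/- livers. Their sums stayed low, at 3.07 to 5.58 on HF and 1.73 to 3.45 CPM on Chow in floxed Ctrl livers. Of 6 endothelial markers 1 was called higher in floxed Ctrl and 2 in Maf1hep-/- livers, and 0 lower. No marker of these lists was at 0, and their part in the diet results was not tested.

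In floxed Ctrl livers, edgeR called Orm1 and Orm2 lower on HF, Orm1 only narrowly. Orm1 stood at 305, 363, 299, 423 and 392 CPM on HF and at 806, 503, 424 and 353 CPM on Chow, with Chow mouse 4 inside the HF range. Its log2 difference was -0.56 (SE 0.21, edgeR adjusted p = 0.0454, exact permutation p = 0.0635). Leaving out Chow mouse 1 or 2, or HF mouse 1, 2, 3 or 5, removed the call (edgeR adjusted p 0.0605 to 0.142). It stayed without Chow mouse 3 or 4 or HF mouse 4. Orm2 stood at 4.78 to 10.1 CPM on HF and at 60.75, 18.8, 12.6 and 9.75 CPM on Chow, and only Chow mouse 4 reached into the HF range (log2 difference -1.65, SE 0.47, edgeR adjusted p = 0.0125; exact permutation p = 0.0159). These 2 of 9 genes compare with 28% of all genes called lower.

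Saa1 and Saa2, at 29.7 to 206 and 6.48 to 79.0 CPM on HF, lay below Chow mouse 1 and above the other 3 Chow mice, and were not called (log2 differences -0.17, SE 0.98, and -0.87, SE 1.11; edgeR adjusted p = 0.894 and 0.536). Without Chow mouse 1 both were called as higher on HF (2.62, edgeR adjusted p = 0.00386, and 2.41, edgeR adjusted p = 0.0164), as was Steap4 (0.60, edgeR adjusted p = 0.0134); Orm2 was still called lower (-0.77, edgeR adjusted p = 0.023) and Orm1 was not (-0.28, edgeR adjusted p = 0.142). The signs of the uncalled serum amyloid A differences also changed with this mouse kept, under other settings given in the closing section. These calls compare with 51.5% of genes called without it. Without it the serum amyloid A genes did not overlap between diets, which held, in the higher direction, for 23.9% of genes. Of 25 other positive acute phase genes 3 were called higher and 6 lower on HF in floxed Ctrl livers, and 7 and 5 without that mouse.

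In Maf1hep-/- livers, Apcs was the only 1 of the 9 genes called between diets. It was higher on HF (94.4 ± 21.0 CPM) than on Chow (58.2 ± 6.14 CPM; SD, n = 4 each), with no overlap between the groups (log2 difference 0.70, SE 0.15, edgeR adjusted p = 0.00447; exact permutation p = 0.0286, the smallest possible). Of all genes 20.5% were called higher and 18.2% were higher without overlap in this comparison. The counts of Apcs were whole on both diets. In floxed Ctrl livers Apcs overlapped between the diets (37.4 to 61.0 and 43.05 to 75.6 CPM), and these comparisons share the mice of the HF genotype comparison.

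Between mice, the 9 genes varied together. Each level was taken on the log2 scale (prior count 2) as its deviation from the mean of the mouse's group, and all 36 pairs were correlated over the 29 mice, with permutation within groups and Benjamini-Hochberg adjustment over the 36. Of these, 26 pairs had an adjusted p under 0.05, all with r above 0, and 25 of the 26 had r above 0 in each of the 3 cohorts. That agreement between cohorts rested in part on floxed Ctrl Chow mouse 1. Without it, r in the hepatocyte Chow cohort was below 0 for Saa2 with Hp (-0.143), Lcn2 (-0.123) and Steap4 (-0.202). It was also below 0 for Steap4 with Orm1 (-0.0116) and Orm2 (-0.0993), and above 0 for the others of the 26. Spearman's rho also passed for 26 pairs.

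Saa1 and Saa2 were closest, with r = 0.957 and rho = 0.930 (permutation p = 1e-05 for both, the smallest that 100000 draws can give; adjusted p = 0.00018 and 0.00036). Within cohorts r was 0.924, 0.973 and 0.946 in whole-body Chow, hepatocyte Chow and hepatocyte HF mice, and without the 2 mice farthest from the median of Saa1 it was 0.890. Reads of the pair can be exchanged in counting, and the promoters printed above differ at few positions. Orm1 and Orm2 followed with r = 0.836 and rho = 0.772 (permutation p = 1e-05 and 4e-05; adjusted p = 0.00018 and 0.00048), 0.727 to 0.911 within cohorts and 0.681 without the 2 farthest mice.

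Saa1 and Lcn2, which share neither locus nor sequence family, had r = 0.823 and rho = 0.740 (permutation p = 0.00026 and 0.00024; adjusted p = 0.00234 and 0.00216), with 0.774, 0.859 and 0.763 in the 3 cohorts and 0.565 without the 2 farthest mice. Saa1 and Hp had r = 0.622 and rho = 0.748 (permutation p = 6e-05 and 4e-05; adjusted p = 0.00072 and 0.00048), with 0.807, 0.760 and 0.619 in the cohorts and 0.597 without the 2 farthest mice. Saa1 and Steap4 had r = 0.732 and rho = 0.5 (permutation p = 0.0120 and 0.0263, adjusted p = 0.0180 and 0.0394). Their r was -0.0117 in whole-body Chow mice and 0.340 without the 2 farthest mice, and so rested on those mice. In the hepatocyte Chow cohort r leaned on floxed Ctrl Chow mouse 1 for each of these pairs. Without it, r there was 0.291 for Saa1 with Lcn2, 0.182 with Hp and 0.0949 with Steap4. Over all cohorts without that mouse r was 0.655, 0.645 and 0.376.

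Apcs was the least bound to the others. It passed with Orm1 (r = 0.628, rho = 0.648, permutation p = 0.00077 and 0.00052, adjusted p = 0.00324 and 0.00312) and Hpx (r = 0.581, rho = 0.554, permutation p = 0.00211 and 0.00563, adjusted p = 0.00566 and 0.0127). Its r with Saa1 was 0.272 and with Hp -0.00238, and neither passed. Without floxed Ctrl Chow mouse 1, 16 pairs passed, all of them among the 26, and the 10 that were lost included all 5 called pairs with Steap4. Without the whole hepatocyte Chow cohort 5 pairs passed.

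**Figure D5:**
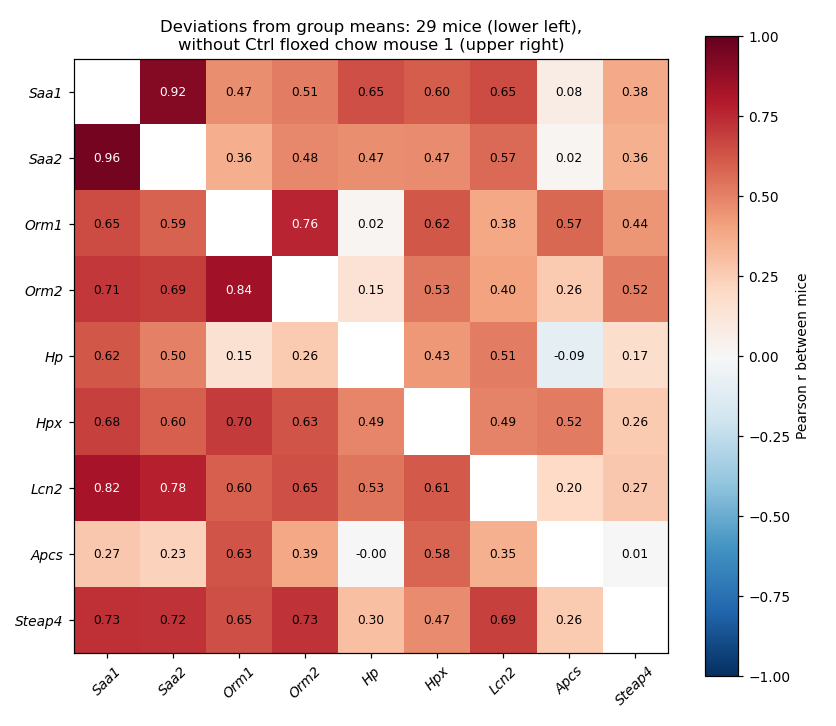
Pearson r between mice for each pair of genes, on log2 deviations from group means, over 29 mice (lower left) and without floxed Ctrl Chow mouse 1 (upper right). Saa1 with Saa2 (0.957) and Orm1 with Orm2 (0.836) are the highest of the lower left, the row of Apcs and that of Hp hold the lowest values, and most values are smaller in the upper right.

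Against the background of other genes, the 9 fell into different company. For Saa1, Saa2, Orm1 and Lcn2, 7 of the 8 other members had an r above the 95th percentile of r with 12441 non-member genes, which was 0.418 for Saa1. For Hp that percentile was 0.739, the highest of the 9, and 0 of 8 members exceeded it. The gene that followed Hp most closely over 29 mice was Lrg1, an acute phase glycoprotein (r = 0.938; 0.938, 0.955 and 0.940 in the cohorts). Steap4 was followed most closely by Cxcl1 (r = 0.924; 0.463, 0.999 and 0.870 in the cohorts), Lcn2 by Tifa (0.812), and Saa1 and Saa2 by Serpina10 (0.837 and 0.784), an inhibitor of coagulation factor X. Without floxed Ctrl Chow mouse 1 these r were 0.743 for Steap4, 0.586 for Lcn2, 0.692 for Saa1 and 0.593 for Saa2. The closest to Apcs was Slc3a1 (0.786), to Hpx Slc37a1 (0.857), to Orm1 Cd302 (0.785) and to Orm2 Gm4070 (0.797). The 5 genes nearest to the mean deviation of the 9 were Serpina10 (0.857), Cxcl1 (0.850), the adhesion receptor Icam1 (0.840), the innate immune receptor Tlr2 (0.829) and Tifa (0.816), and without floxed Ctrl Chow mouse 1 these were 0.519 to 0.719. These values come from the same 29 libraries and are descriptions.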

How the data were processed

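Liver RNA was sequenced from 29 mice in 3 cohorts. Per the study's methods, the authors trimmed reads, aligned them to mm10 with STAR and estimated counts with RSEM, and they deposited expected counts per gene. All 29 sample columns were used, mapped by their labels. Expected counts were rounded, genes with 1 CPM in at least 1 mouse of a fit were kept, and groups were compared with edgeR 4.0.16 (R 4.3.3; TMM, quasi-likelihood test, Benjamini-Hochberg over all genes; threshold 0.05). The authors' own fits used limma voom with RUVr factors and edgeR 3.32.1, so limma 3.58.1 with 0, 1 or 3 factors, DESeq2 1.42.0, other scalings and filters, a replicate block and leaving out each mouse were alternatives. Exact permutation tests were two-sided over mice. Levels are TMM-scaled CPM; ratios to group mates used a pseudocount of 0.1 CPM. On simulated counts, drawn independently for each gene, 67 to 83% of 2-fold changes were found. In the livers genes varied together between mice, so this share need not hold for the fits reported. The share was also not tested for the 9 genes, several of which vary more between mice than most genes. All 9 genes were named, other genes by list, rank or likeness. The members and lists were chosen with earlier results of these data known. Replicates are separate mice. The replicate numbers of the HF cohort met the pairing criterion (every correlation over 0.1), from the data alone, whereas the study's methods describe its tested datasets as unpaired.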

Additional observations from a re-analysis of the deposited data

Results flagged for a closer look

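In 9 of 54 gene and group combinations 1 mouse lay farther from its group than Dixon's 95% criterion allows. For normally distributed values chance does so in about 1 in 20 groups. The criterion was applied to CPM without logs, and its rate over all genes was not computed. The 9 are therefore not shown to be more than other genes would give. Floxed Ctrl Chow mouse 1 accounted for 4 of them: Saa1 at 314.6 CPM (next mouse 15.45), Saa2 at 184.4 (5.79), Lcn2 at 67.65 (6.04) and Steap4 at 1033 CPM (157). Floxed Ctrl HF mouse 2 was highest for Saa1, at 205.7 CPM (next mouse 58.2), and for Saa2, at 78.99 CPM (24.1). Maf1hep-/- Chow mouse 3 stood at 134.8 CPM of Saa2 (next mouse 30.2), and Maf1hep-/- Chow mouse 1 at 28.71 CPM of Lcn2 (9.23). Whole-body Ctrl mouse 2 was lowest for Hp, at 793.8 CPM (next mouse 2043). The genes are correlated, so these are not 9 independent departures.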

How the results depend on the processing

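None of the 9 genes was called in the Chow genotype comparisons with edgeR, and 1 (Hp) was called in Maf1-/- livers by voom with 1 or 3 RUVr factors, which called 4299 and 6130 of 12796 genes. On HF, the number called was 2 with DESeq2 (56 of 12378 genes) and 1 with 3 RUVr factors (175 genes). In floxed Ctrl livers Orm1 lost its call between diets with library totals (8920 of 12954 genes) and with voom without factors, leaving Orm2. With paralogs summed, the sum of Orm1 and Orm2 was still called (log2 difference -0.60, edgeR adjusted p = 0.0424). In Maf1hep-/- livers 2 were called with library totals (8200 of 12964 genes). Leaving out each mouse gave 0 to 1 calls for Maf1-/-, 0 for Maf1hep-/- on either diet, 1 to 4 between diets in floxed Ctrl and 1 to 2 in Maf1hep-/- livers.

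Signs of uncalled genes changed. For Maf1hep-/- on Chow, Saa1 was 1.30, 1.29 and 1.40 and Lcn2 0.143, 0.162 and 0.146 with voom and 0, 1 and 3 factors. Between diets in floxed Ctrl livers, Saa1 was 0.303 with library totals and 1.12, 1.04 and 1.06 with voom, and Saa2 0.593, 0.0427 and 0.310. Leaving out single mice on Chow gave -0.614 to 2.70 for Saa1, -1.11 to 3.32 for Saa2, -0.203 to 0.959 for Orm2, -1.45 to 1.30 for Lcn2 and -1.34 to 0.349 for Steap4, and between diets in floxed Ctrl livers -0.915 to 2.62 for Saa1 and -1.77 to 2.41 for Saa2. On HF, Saa1 ran from -0.328 to 1.01, Saa2 from -0.0321 to 1.51 and Steap4 from -0.184 to 0.401. The cause of the changes with voom was not tested.

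With the replicate number as a block, 1 gene (Apcs) was called on HF and 1 between diets in floxed Ctrl livers; Saa1 was 1.40 and Lcn2 0.08 for Maf1hep-/- on Chow, and Saa1 1.46 and Saa2 0.644 between diets in floxed Ctrl livers. The block changed the count of calls in no other comparison. Outside the HF cohort the numbers did not meet the pairing criterion (correlations -0.566 to 0.327).

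The 26 correlated pairs became 16 without floxed Ctrl Chow mouse 1, chosen after seeing the data, and 5 without the hepatocyte Chow cohort.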

Other observations

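Mt2 and Mt1, the metallothioneins that bind zinc and copper, were 65.3-fold and 14.6-fold above the group mates in floxed Ctrl Chow mouse 1. In HF-fed Maf1hep-/- livers they had log2 fold changes of 3.43 and 3.17 (edgeR adjusted p = 0.0511 and 0.0784), and neither passed the test. They were named after their values were seen. Orm2 had a coefficient of variation of 5.5% in the 5 Maf1-/- livers and 52.9% in the 7 whole-body Ctrl livers; the difference was not tested.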
